A study of Mus musculus with 8 samples.

Results

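The genes of protein folding and secretion in the endoplasmic reticulum (ER) were followed as a set of 38 members, found by gene symbol among the 18605 genes of the expression table, and all 38 had enough counts to be tested. RNA was sequenced from C3H10T1/2 cells, a mouse line with the properties of mesenchymal stem cells. NC cells carried a non-target control, and KD-Nap1l2 cells carried an shRNA against Nap1l2, which encodes a histone chaperone of the nucleosome assembly protein family. Both were taken before induction, and again (NC-7d and KD-Nap1l2-7d) after 7 days in an osteogenic medium with dexamethasone, ascorbic acid and β-glycerophosphate, which all induced cells shared. No library was taken after 7 days without this medium. The medium and the 7 days of culture therefore cannot be told apart, and "induction" below means both. There were 2 libraries in each of the 4 groups, all from 1 cell line, and nothing in the sources says that the libraries of a group came from separate cultures, so p-values measure only the spread between these libraries, which may be technical. Library totals ran from 17420284 to 19427359 estimated counts.

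The targeted gene was read at the limit of this depth. Nap1l2 had 3 and 3 counts in NC, 2 and 7 in KD-Nap1l2, 15 and 5 in NC-7d, and 7 and 13 in KD-Nap1l2-7d. The groups overlapped at both times, so a knockdown was not detectable in the transcript counts, and "shRNA" below means the libraries labelled KD-Nap1l2. The paper reports knockdown of NAP1L2 in this cell line by western blot and qPCR, and counts this low cannot decide the matter for these libraries. Of 12 mesenchymal marker genes, 10 were at 36.4 CPM (counts scaled to library size) or more in every library, among them Vim at 2886 to 8660 CPM and Prrx1 at 477 to 1073 CPM, whereas Thy1 ran from 0.998 to 10.4 CPM and Nt5e did not exceed 0.176 CPM. Of 8 osteoblast genes, Spp1 was at 1537 to 5316 CPM and Runx2 at 53.5 to 91.5 CPM, Dmp1 ran from 3.94 to 30.5 CPM and Phex from 2.15 to 21.5 CPM, and Sp7, Alpl, Bglap and Ibsp did not exceed 1.26 CPM in any library, induced ones included.

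Proteins bound for the cell surface or the matrix enter the ER through the Sec61 channel, are glycosylated by the oligosaccharyltransferase as they pass, and fold with the help of chaperones, lectins and disulphide isomerases. Chains that fail to fold are returned to the cytosol for ER-associated degradation (ERAD), and a build-up of unfolded chains activates the sensors IRE1 (encoded by Ern1), ATF6 and PERK (Eif2ak3), which together raise the folding capacity in the unfolded protein response (UPR). Osteoblasts and fibroblasts put much of this capacity into collagen, which needs chaperones of its own.

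Many genes of the set are known for a short promoter element through which ATF6 and XBP1 act. The ER stress response element (ERSE) reads CCAAT, 9 bases of any kind, then CCACG, and the related ERSE-II reads ATTGG, any base, then CCACG. Both were searched on both strands in windows of 300 bases, from 250 bases before to 50 after each RefSeq gene start (GRCm38.p6), and 31 of the 38 members had a window (Atf6, Fkbp10, Hyou1, Manf, Ostc, Sec61a1 and Ssr2 did not). ERSE was found in 8 of the 31 (25.8%) and in 37 of all 27025 genes with a window (0.137%). ERSE-II was found in 3 of the 31 (9.68%) and in 12 of all genes (0.0444%). A further element, UPRE, which reads TGACG then TGG, was in 0 of the 31 and in 193 of all genes (0.714%). Of the 31 members with a window, 20 carry neither ERSE nor ERSE-II. The elements that lie wholly upstream of the RefSeq start of the window are shown because they occur in members of different roles. Each is printed 5′ to 3′ on the strand of the gene, with the element in capitals and 12 bases on each side (5 for Hspa5). The elements of Calr and Creld2 and the second of Hsp90b1 lie in the opposite orientation and so read CGTGG, 9 bases, then ATTGG.
Hspa5 (chr2:34772020-34772048, plus strand): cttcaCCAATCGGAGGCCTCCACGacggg
Hsp90b1, first (chr10:86705626-86705668, minus strand): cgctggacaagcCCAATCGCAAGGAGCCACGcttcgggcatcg
Hsp90b1, second (chr10:86705521-86705563, minus strand): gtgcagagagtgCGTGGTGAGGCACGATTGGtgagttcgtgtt
Dnajc3 (chr14:118937815-118937857, plus strand): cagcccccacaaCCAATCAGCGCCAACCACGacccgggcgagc
Creld2 (chr15:88819508-88819550, plus strand): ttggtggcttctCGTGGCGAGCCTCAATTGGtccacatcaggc
Calr (chr8:84847063-84847105, minus strand): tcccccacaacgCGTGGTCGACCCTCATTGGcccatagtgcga
Canx (chr11:50325788-50325830, minus strand): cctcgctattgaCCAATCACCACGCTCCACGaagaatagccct
Pdia6 (chr12:17266479-17266521, plus strand): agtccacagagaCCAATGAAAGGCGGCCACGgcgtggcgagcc
Syvn1 (chr19:6046520-6046562, plus strand): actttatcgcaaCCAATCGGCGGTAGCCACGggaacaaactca
Herpud1, ERSE-II (chr8:94386365-94386399, plus strand): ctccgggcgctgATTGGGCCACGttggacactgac
In Hspa5 the first base of the element stood 65 bases before the RefSeq start and in Syvn1 44 bases before it. GENCODE vM21 places the start of Hspa5 farther upstream, at base 34771970, so that this element lies in the untranslated first exon of that annotation, while the other elements printed meet no GENCODE exon. The first element of Hsp90b1 stood farthest out, at 212 bases. In Dnajb11 and Krtcap2 the ERSE-II letters reach past the start and are not printed. A match is a description of these windows and not evidence of binding. Many members were already known for such an element, so their share beside that of all genes is a description and not a test.

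Per length, the members spanned more than 2 orders of magnitude. On the FPKM scale, which scales counts to gene length and library size, averaged over the 8 libraries, the lectin chaperone Calr was highest at 747 and the sensor Ern1 lowest at 5.1. Calr was followed by Serpinh1, the collagen-specific chaperone, at 523, by P4hb, a disulphide isomerase that is also the beta subunit of collagen prolyl 4-hydroxylase, at 509, and by Hsp90b1, the ER member of the HSP90 family, at 453. The ranges of these 3 neighbours overlapped, with Serpinh1 from 299 to 880 FPKM, P4hb from 360 to 964 and Hsp90b1 from 287 to 740. These ranges take in induced and uninduced libraries, and the order of the 3 was not tested. Pdia3 at 337 FPKM and Hspa5, the ER HSP70 BiP, at 234 came next. The translocon and oligosaccharyltransferase subunits lay closer together, between 46.4 FPKM for Ssr1 and 169 for Ssr2. The ERAD genes lay between 15.8 FPKM for Edem1 and 32.8 for Herpud1, and the 3 sensors between 5.1 and 6.8, with overlapping ranges. Together the members took 0.88% to 1.44% of the counts of a library, least in NC-7d replicate 1 and most in KD-Nap1l2 replicate 2.

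**Figure D1:**
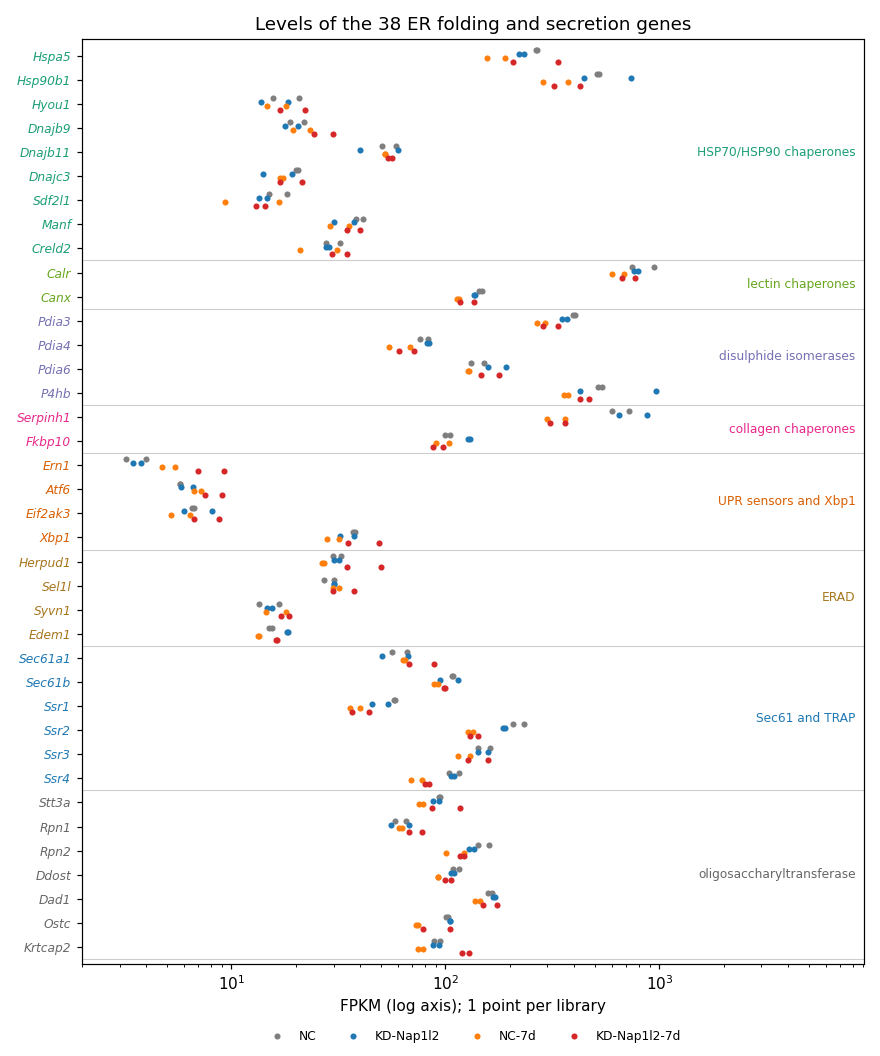
FPKM (log axis) of each of the 38 members in each of the 8 libraries, 1 point per library, coloured by group and arranged by role. Levels run from the sensors, under 10 FPKM in every library, to Calr, at 602 FPKM or more in every library, and in most rows the spread between groups is small beside the spread between genes.

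The first question was how the set responds to osteogenic induction in control cells. Most members were lower after 7 days. On the log2 scale 32 of 38 were at or below 0 in NC-7d against NC, with a median of -0.28, where the median of all 13470 genes tested was -0.00. Both NC-7d libraries lay below both NC libraries for 26 members, where 28.4% of all genes did so, and above both for 3, against 29.4% of all genes. In bulk RNA, fewer cells of a type and less RNA per cell cannot be told apart. Past the threshold (edgeR's quasi-likelihood test, Benjamini-Hochberg adjusted p under 0.05, here called the edgeR adjusted p), 4 members fell (3.38% of all genes fell) and 0 rose (4.83% of all genes rose). The 4 were Serpinh1, Ssr1, Ssr2 and Ssr4, and 16 members had an unadjusted p under 0.05.

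In the shRNA cells the same induction gave a more divided picture. In KD-Nap1l2-7d against KD-Nap1l2, 18 of 38 members were above 0 and the median was -0.04 (all genes -0.01). It moved to -0.10 without KD-Nap1l2-7d replicate 1, to 0.05 without KD-Nap1l2 replicate 2 and to 0.06 without KD-Nap1l2-7d replicate 2. Both libraries were lower for 10 members (30.6% of all genes) and higher for 8 (30.8% of all genes). The collagen chaperones Serpinh1 and Fkbp10 fell, where 7.36% of all genes fell. Ern1 and the oligosaccharyltransferase subunit gene Krtcap2 rose, where 6.84% of all genes rose. With 2 of 38 members in either direction, the called share in shRNA cells was not above the background.

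**Figure D2:**
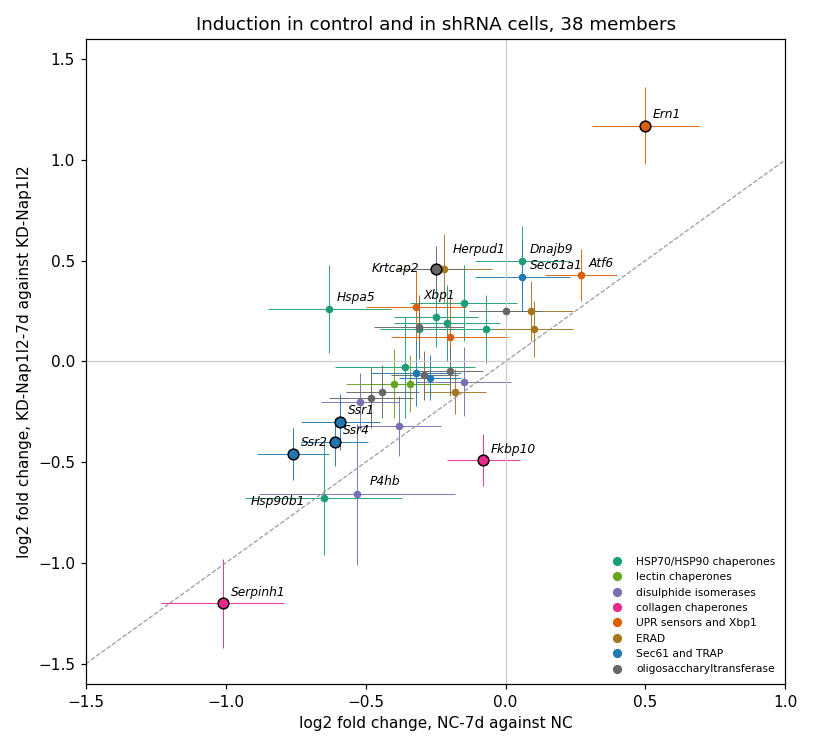
Log2 fold change on induction in control cells (horizontal axis) and in shRNA cells (vertical axis) for the 38 members, coloured by role, with bars of 1 standard error and a dashed line of equal change. Black rims mark the 7 members called in at least 1 of the lines: Serpinh1, Fkbp10 and the 3 Ssr genes lie below 0 on both axes, Ern1 above 0 on both, and most of the other points lie above the dashed line.

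Serpinh1, a collagen chaperone, fell furthest in both lines. The gene (chr7:99345376-99353239, minus strand) encodes the chaperone that binds folded procollagen in the ER and escorts it to the Golgi. Its levels were 1634 and 1332 CPM in NC, 1390 and 2055 in KD-Nap1l2, 685 and 792 in NC-7d, and 805 and 698 in KD-Nap1l2-7d. All 4 induced libraries lay below all 4 uninduced ones, and the lines overlapped at both times. The mean went from 1483 ± 214 CPM (SD, n = 2) to 738 ± 76 in control cells, a log2 fold change of -1.01 ± 0.22 (SE, edgeR adjusted p = 0.0313). In shRNA cells it went from 1722 ± 470 CPM to 752 ± 76.1, a log2 fold change of -1.20 ± 0.22 (edgeR adjusted p = 0.0133). The call in control cells was lost when any 1 of NC replicate 1, NC replicate 2, NC-7d replicate 1 or NC-7d replicate 2 was left out, with the fold change between -1.14 and -0.85, and the call in shRNA cells was lost without either KD-Nap1l2-7d library, with a fold change between -1.45 and -0.89 over the 4 libraries left out in turn.

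Fkbp10 (chr11:100415697-100424824, plus strand) encodes a prolyl isomerase that acts on procollagen. Its levels were 262 and 272 CPM in NC, 241 and 265 in NC-7d, 320 and 357 in KD-Nap1l2, and 253 and 230 in KD-Nap1l2-7d. The control groups overlapped, and the shRNA cells stood above the other 3 groups before induction only. The log2 fold change on induction was -0.08 ± 0.13 in control cells (edgeR adjusted p = 0.758) and -0.49 ± 0.13 in shRNA cells (edgeR adjusted p = 0.0447), and the difference between the responses, -0.41 ± 0.18, did not pass (edgeR adjusted p = 0.706). The call in shRNA cells was lost without KD-Nap1l2 replicate 2, where the value was -0.40, and without either KD-Nap1l2-7d library. The exons of Fkbp10 overlap those of Nt5c3b on the other strand, and the strand setting of the counting is not given in the sources used here. Nt5c3b itself ran from 33.3 to 40.9 CPM over the 8 libraries.

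In control cells 3 of the 4 called members were translocon-associated genes. Ssr1, Ssr2, Ssr3 and Ssr4 encode the 4 subunits of the translocon-associated protein (TRAP) complex, which sits beside the Sec61 channel and aids the entry of certain signal sequences. Ssr2 (chr3:88575876-88588419, plus strand) was at 252 and 220 CPM in NC, 147 and 133 in NC-7d, 190 and 211 in KD-Nap1l2, and 151 and 140 in KD-Nap1l2-7d. Ssr4 (chrX:73787028-73790830, plus strand) was at 84 and 74.1 CPM in NC, 50.3 and 53.5 in NC-7d, 74.1 and 78.2 in KD-Nap1l2, and 58.7 and 56.9 in KD-Nap1l2-7d. Ssr1 (chr13:37966605-37994217, minus strand) was at 304 and 292 CPM in NC, 210 and 186 in NC-7d, 262 and 250 in KD-Nap1l2, and 226 and 190 in KD-Nap1l2-7d. For each of the 3, every induced library was below every uninduced one. In control cells the log2 fold change was -0.76 ± 0.13 for Ssr2 (edgeR adjusted p = 0.0164), -0.61 ± 0.12 for Ssr4 (edgeR adjusted p = 0.0213) and -0.59 ± 0.14 for Ssr1 (edgeR adjusted p = 0.0392).

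In shRNA cells the same 3 genes had log2 fold changes of -0.46 for Ssr2 (edgeR adjusted p = 0.0578), -0.40 for Ssr4 (edgeR adjusted p = 0.0595) and -0.30 for Ssr1 (edgeR adjusted p = 0.182), none of which passed. The difference between the lines was 0.30 ± 0.19 for Ssr2, 0.21 ± 0.17 for Ssr4 and 0.29 ± 0.19 for Ssr1, so that a smaller fall in shRNA cells was not shown. Without 1 library the control call of Ssr2 was lost for NC replicate 1 and for NC-7d replicate 2, and its value stayed between -0.85 and -0.66. The calls of Ssr1 and Ssr4 were lost for each of the NC and NC-7d libraries, with values from -0.68 to -0.51 and from -0.69 to -0.51. The fourth subunit gene, Ssr3, gave -0.32 ± 0.16 in control cells (edgeR adjusted p = 0.277). Of the channel genes, Sec61b gave -0.27 ± 0.11, close to Ssr3, and Sec61a1, which encodes the pore, 0.06 ± 0.17 in control cells, and Sec61a1 gave 0.42 ± 0.17 in shRNA cells (edgeR adjusted p = 0.132).

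**Figure D3:**
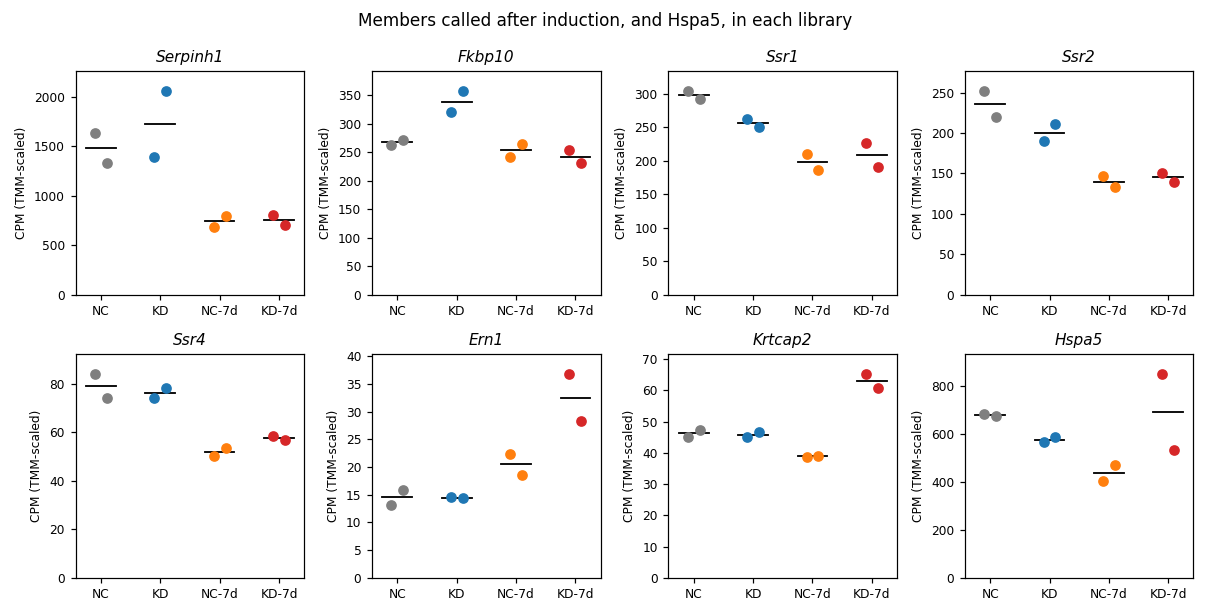
CPM (TMM-scaled) in each library of the 7 members called on induction and of Hspa5, with 1 point per library, a black line at the mean of each group and axes that start at 0. KD and KD-7d stand for KD-Nap1l2 and KD-Nap1l2-7d. Serpinh1 and the Ssr genes separate induced from uninduced libraries, while Ern1, Krtcap2 and Hspa5 are highest in KD-Nap1l2-7d replicate 1.

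Among the sensors, Ern1 rose in the shRNA cells. Ern1 (chr11:106394650-106487852, minus strand) encodes IRE1, the kinase and endoribonuclease that removes a short intron from Xbp1 mRNA. It was at 13.1 and 15.9 CPM in NC, 14.5 and 14.4 in KD-Nap1l2, 22.4 and 18.5 in NC-7d, and 36.7 and 28.2 in KD-Nap1l2-7d. The groups before induction overlapped, both control libraries were higher after induction, and both induced shRNA libraries were higher still. The log2 fold change on induction was 1.17 ± 0.19 in shRNA cells (edgeR adjusted p = 0.00876) and 0.50 ± 0.19 in control cells (edgeR adjusted p = 0.156). The difference between the lines, 0.67 ± 0.26, did not pass (edgeR adjusted p = 0.681). The call in shRNA cells was lost without KD-Nap1l2-7d replicate 1, where the value was 0.96.

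The other sensor genes moved less. Atf6, whose product is cleaved in the Golgi to release a transcription factor, was at 42.6 and 42 CPM in NC, 46.4 and 44.5 in KD-Nap1l2, 54.4 and 48 in NC-7d, and 66.5 and 55.8 in KD-Nap1l2-7d. The 4 groups stood in that order without overlap, but the largest contrast, 0.43 ± 0.13 on induction in shRNA cells, did not pass (edgeR adjusted p = 0.0661). Eif2ak3, whose kinase slows translation by phosphorylating eIF2α, was at 28.6 and 28.5 CPM in NC, 24.6 and 36.3 in KD-Nap1l2, 22.6 and 27.1 in NC-7d, and 37.4 and 28.7 in KD-Nap1l2-7d. Its spread within KD-Nap1l2 covered the NC and KD-Nap1l2-7d means, and no contrast passed.

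Xbp1 encodes the transcription factor that IRE1 switches on by splicing. The gene was at 85.5 and 82.4 CPM in NC, 68.6 and 87.5 in KD-Nap1l2, 64.2 and 70.1 in NC-7d, and 109 and 79.7 in KD-Nap1l2-7d. Both induced shRNA libraries lay above both induced control libraries (log2 fold change 0.49 ± 0.18, edgeR adjusted p = 0.558). The deposited transcript table lists Xbp1 as a pair of transcripts with implied lengths of 2248 and 2221 bases, taken here as the unspliced and the spliced mRNA. The spliced transcript held 0% and 10.8% of the gene's estimated counts in NC, 26.9% and 14.9% in KD-Nap1l2, 28.9% and 0.821% in NC-7d, and 27.1% and 27% in KD-Nap1l2-7d. The shRNA libraries exceeded the controls before induction, at 20.9 ± 8.46% against 5.42 ± 7.66% (SD, n = 2), but after induction the NC-7d libraries spanned the whole range. With 2 libraries against 2, an exact permutation test cannot go below p = 0.33, two-sided, and no other test of the shares was run. Only reads that cross the short intron separate these transcripts, so the shares are estimates by the counting program, a listed 0 is not an absence, and no counting interval is given.

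**Figure D4:**
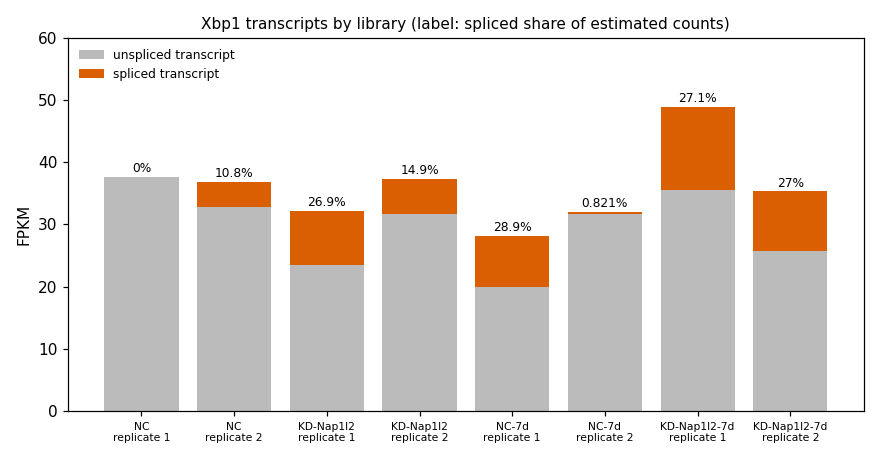
FPKM of the unspliced (grey) and spliced (orange) Xbp1 transcript stacked for each of the 8 libraries, with the spliced share of the estimated counts above each bar. The share differs between replicates of NC-7d from 0.821% to 28.9%, and is alike, near 27%, in both KD-Nap1l2-7d libraries.

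Of all members, the chaperone gene Hspa5 had the largest difference between the lines' responses, which did not pass. Hspa5 (chr2:34771970-34777547, plus strand), whose product binds unfolded chains and holds the sensors inactive, carries the ERSE printed above. It was at 683 and 675 CPM in NC, 566 and 586 in KD-Nap1l2, 404 and 472 in NC-7d, and 848 and 532 in KD-Nap1l2-7d. Control cells were lower after induction in both libraries, whereas KD-Nap1l2-7d held both the highest library of all and one below the KD-Nap1l2 mean. The log2 fold change was -0.63 ± 0.22 in control cells (edgeR adjusted p = 0.122) and 0.26 ± 0.22 in shRNA cells (edgeR adjusted p = 0.443), and their difference was 0.89 ± 0.30 (edgeR adjusted p = 0.669). The difference was 0.52 without KD-Nap1l2-7d replicate 1 and 1.18 without replicate 2 of that group.

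Hsp90b1, which chaperones integrins and Toll-like receptors, was at 1458 and 1405 CPM in NC, 812 and 1009 in NC-7d, 1174 and 2138 in KD-Nap1l2, and 1172 and 899 in KD-Nap1l2-7d. The induced libraries of each line lay below its uninduced ones, by log2 values of -0.65 ± 0.28 in control cells (edgeR adjusted p = 0.202) and -0.68 ± 0.28 in shRNA cells (edgeR adjusted p = 0.145). The latter rested on KD-Nap1l2 replicate 2, without which it was -0.18. The BiP cochaperones gave smaller values. Dnajb9, an ERdj protein that recruits BiP to IRE1, had 0.50 ± 0.17 on induction in shRNA cells (edgeR adjusted p = 0.089) and 0.06 in control cells. Hyou1, the nucleotide exchange factor of BiP, had 0.29 and -0.15, and Dnajc3, another ERdj protein, 0.22 and -0.25. Manf, a secreted ER stress protein that binds BiP, had 0.16 and -0.31. Sdf2l1, a partner of ERdj proteins, had -0.03 and -0.36, Creld2 had 0.19 and -0.21, and Dnajb11 had 0.16 and -0.07. None of these passed in either line.

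Calr and Canx encode the lectins calreticulin and calnexin, which hold glycoproteins until they are folded. Calr was at 1453 and 1828 CPM in NC, 1192 and 1295 in NC-7d, 1415 and 1611 in KD-Nap1l2, and 1485 and 1315 in KD-Nap1l2-7d. The induced control libraries lay below the uninduced ones (-0.40 ± 0.17, edgeR adjusted p = 0.193), and the shRNA groups overlapped (-0.11). Canx gave nearly the same values, -0.34 and -0.11. Pdia3, the isomerase that works with both lectins, came closest to the threshold among members not called in control cells, at -0.52 ± 0.14 (edgeR adjusted p = 0.0578).

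P4hb showed how far 1 library could set a value. It was at 1383 and 1309 CPM in NC, 935 and 933 in NC-7d, 1184 and 1088 in KD-Nap1l2-7d, and 1032 and 2559 in KD-Nap1l2. The replicates of KD-Nap1l2 differed 2.48-fold, more than any group difference for this gene. Before induction its log2 fold change of 0.42 ± 0.35 was the largest of the set (edgeR adjusted p = 0.655), and it became -0.38 without KD-Nap1l2 replicate 2 and 0.93, past the threshold, without replicate 1. That library was also the highest of all 8 for Serpinh1 and Hsp90b1 among 9 members in total, and for Col1a1, at 6503 CPM against 3980 in the other KD-Nap1l2 library. Pdia6, whose protein acts on IRE1 and PERK, was at 283 and 320 CPM in NC, 321 and 423 in KD-Nap1l2, 279 and 264 in NC-7d, and 379 and 314 in KD-Nap1l2-7d. It was higher with the shRNA at both times, by 0.30 ± 0.17 and 0.35 ± 0.17, and neither passed (edgeR adjusted p = 0.492 and 0.69).

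Of the oligosaccharyltransferase genes, Krtcap2 alone was called. Krtcap2 (chr3:89245966-89249906, plus strand) encodes a small subunit that, with Ostc, joins the STT3A form of the enzyme to the translocon. It was at 45.1 and 47.4 CPM in NC, 45 and 46.5 in KD-Nap1l2, 38.7 and 39 in NC-7d, and 65.1 and 60.8 in KD-Nap1l2-7d. The lines were alike before induction and moved apart after it, with control cells below and shRNA cells above every uninduced library. The log2 fold change on induction was 0.46 ± 0.11 in shRNA cells (edgeR adjusted p = 0.0297) and -0.25 ± 0.11 in control cells (edgeR adjusted p = 0.203), and their difference of 0.71 ± 0.15 did not pass (edgeR adjusted p = 0.422). The call was lost without each of the KD-Nap1l2 and KD-Nap1l2-7d libraries, with values from 0.41 to 0.50. The exons of Krtcap2 overlap those of Trim46 on the other strand, and without the strand setting reads of the 2 genes cannot be told apart. Trim46 was listed at 5.61 and 6.51 CPM in NC, 8.15 and 5.73 in NC-7d, 7.61 and 10.7 in KD-Nap1l2, and 9.28 and 9.04 in KD-Nap1l2-7d.

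None of the other 6 subunit genes passed in either line. Dad1, the most abundant of them per length, was at 107 and 112 CPM in NC, 107 and 120 in KD-Nap1l2, 95.6 and 95.7 in NC-7d, and 118 and 102 in KD-Nap1l2-7d, and gave -0.05 on induction in shRNA cells. Ostc gave -0.18 and the catalytic subunit Stt3a 0.17 ± 0.16 there, and both were lower in control cells, at -0.48 ± 0.15 (edgeR adjusted p = 0.0942) and -0.31 ± 0.16 (edgeR adjusted p = 0.296). The ribophorin genes Rpn1 and Rpn2 gave -0.00 and -0.44 in control cells, and Ddost gave -0.29.

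Of the ERAD genes, Herpud1, a membrane protein that assembles the HRD1 ubiquitin ligase and carries the ERSE-II printed above, differed most between the lines. It was at 56.2 and 60.8 CPM in NC, 56.8 and 59.2 in KD-Nap1l2, 52.3 and 48.2 in NC-7d, and 93.9 and 65.2 in KD-Nap1l2-7d. Both induced shRNA libraries exceeded every other library, while the 2 differed from each other. Induction gave 0.46 ± 0.17 in shRNA cells (edgeR adjusted p = 0.117) and -0.22 ± 0.17 in control cells. Syvn1, which encodes HRD1 itself, gave 0.25 and 0.09, its partner Sel1l 0.16 and 0.10, and Edem1, a mannosidase-like protein that sorts glycoproteins for degradation, -0.15 and -0.18. None of these 3 passed.

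The study's own question was what loss of Nap1l2 changes, and the set was therefore compared between the lines at each time. Which of the study's shRNAs these libraries carried is not stated. Loss of Nap1l2 cannot be told apart here from other differences between the lines. Before induction, 0 members rose (0.0223% of all genes did) and 0 fell (0.0594%), with 1 member, Fkbp10, at an unadjusted p under 0.05. Both shRNA libraries were higher for 4 members (22% of all genes) and lower for 8 (21.2%), 12 of 38 lay above 0, and the median was -0.06. Fkbp10 had a log2 fold change of 0.34 ± 0.13 (edgeR adjusted p = 0.307).

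After 7 days the direction was nearly uniform but no member passed. In KD-Nap1l2-7d against NC-7d, 37 of 38 members were above 0 (97.4%, where 49.1% of all genes were), with a median of 0.21, and Fkbp10 was the exception at -0.07. Both shRNA libraries lay above both controls for 24 members, where 21% of all genes did so, and below both for 0, where 21% did. By edgeR 0 members were called in either direction, as were 0 of all genes (0% higher and 0% lower), with 7 members and 1057 of all genes at an unadjusted p under 0.05. DESeq2's Wald test called 1 member, Krtcap2 (DESeq2 adjusted p = 0.00554), and 82 genes in all. The largest log2 fold changes were 0.70 ± 0.11 for Krtcap2 (edgeR adjusted p = 0.443), 0.67 ± 0.19 for Ern1 (edgeR adjusted p = 0.504), 0.66 ± 0.17 for Herpud1 (edgeR adjusted p = 0.495) and 0.66 ± 0.22 for Hspa5 (edgeR adjusted p = 0.529). By role, the median was highest for the sensors and Xbp1 at 0.45 and lowest for the collagen chaperones at -0.02, with the oligosaccharyltransferase at 0.24, the chaperones at 0.22 and the translocon at 0.15.

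The size of this difference rested in part on 1 library. KD-Nap1l2-7d replicate 1 held the highest of the 8 values for 16 members, and the 2 NC-7d libraries held the lowest for 15 and 12. Relative to the NC mean, the median of the members was 0.06 in KD-Nap1l2-7d replicate 1, -0.15 in replicate 2, and -0.28 and -0.26 in NC-7d, while the median of all genes was between -0.01 and -0.00 in these 4 libraries. Without KD-Nap1l2-7d replicate 1 the median log2 fold change was 0.11 and 33 members were above 0. Without replicate 2 it was 0.31 with 37 members above 0.

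**Figure D5:**
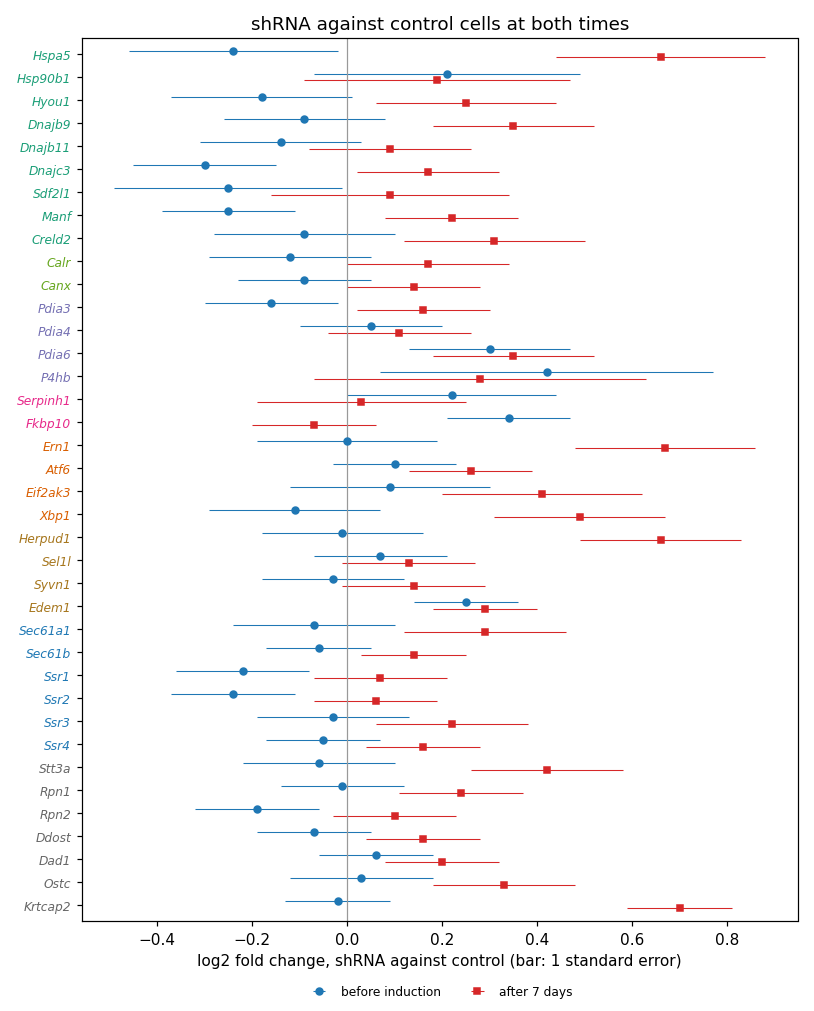
Log2 fold change of shRNA against control cells for each of the 38 members before induction (blue circles) and after 7 days (red squares), with bars of 1 standard error and gene names coloured by role as in the plot of FPKM levels. The circles fall on both sides of 0, and 37 of 38 squares lie above it, farthest for Krtcap2, Ern1, Herpud1 and Hspa5.

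The difference between the induction responses was tested directly. It was above 0 for 34 of 38 members (89.5%, all genes 47.8%), with a median of 0.29 that was 0.19 without KD-Nap1l2-7d replicate 1. The exceptions were Fkbp10, Serpinh1, P4hb and Hsp90b1, at -0.41, -0.19, -0.13 and -0.02. By edgeR 0 members passed in either direction, as did 0 of all genes (0% higher and 0% lower), and 6 members and 948 genes had an unadjusted p under 0.05. DESeq2 called 97 genes. This contrast uses the same NC-7d and KD-Nap1l2-7d libraries as the comparison after 7 days, so the 2 are not independent.

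The 11 members with ERSE or ERSE-II in their window were set beside the 20 members without either, by medians and with no test. On induction in control cells the medians were close, at -0.25 with an element and -0.31 without. In shRNA cells they were 0.19 and -0.07, with ranges that overlapped (-0.68 to 0.46 and -1.20 to 1.17). Between the lines after 7 days the medians were 0.19 and 0.18.

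Neighbouring genes of the pathway, in lists that do not overlap the set, were read the same way. Of all genes, 3.38% fell and 4.83% rose in control cells, and 7.36% fell and 6.84% rose in shRNA cells. Of 24 other folding and oxidation genes, 7 fell and 0 rose in control cells, with a median of -0.35. P4ha1, the catalytic alpha subunit of the prolyl 4-hydroxylase that P4hb completes, fell by 2.22 on the log2 scale (edgeR adjusted p = 0.0367), the prolyl isomerase gene Fkbp9 fell by 1.11 (edgeR adjusted p = 0.00356) and the thioredoxin-like Tmx1 fell by 0.98 (edgeR adjusted p = 0.011). In shRNA cells 4 fell and 1 rose, and of these Fkbp9 fell by 0.80, Fkbp14 fell by 0.59 and Txndc5 fell by 0.58 (edgeR adjusted p = 0.00852, 0.0209 and 0.0213). Like P4hb, P4ha1 differed widely between the KD-Nap1l2 libraries, at 241 and 887 CPM.

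Of 16 other UPR genes, 0 were called in control cells and 2 rose in shRNA cells, Wfs1 by 1.0 ± 0.18 (edgeR adjusted p = 0.0121) and Creb3 by 0.47 ± 0.12 (edgeR adjusted p = 0.0387). Wfs1 encodes an ER membrane protein linked to calcium handling, and Creb3 a transcription factor released from the ER membrane as ATF6 is. Of 16 other ERAD genes tested, the ubiquitin-conjugating enzyme gene Ube2g2 rose in both lines, by 1.19 in control cells and 1.09 in shRNA cells (edgeR adjusted p = 0.00499 and 0.00452), and Ube2j1 and Nploc4 rose in shRNA cells, by 0.55 and 0.51 (edgeR adjusted p = 0.0225 and 0.0431). Of 26 other translocation and glycan genes, 1 fell in each line, Dpm1 (log2 fold change -0.66) in control cells and Sec61a2 (-0.68) in shRNA cells (edgeR adjusted p = 0.0336 and 0.024). Of 24 ER exit and retrieval genes tested, the COPII coat genes Sec24a and Sec31a rose in shRNA cells, by 0.84 and 0.57 (edgeR adjusted p = 0.025 and 0.0495), and 0 were called in control cells. Between the lines after 7 days, 23 of these 24 and 23 of the 26 translocation genes were above 0, with medians of 0.23 and 0.17. The share was lower in the other lists, at 18 of 24 folding genes (median 0.09), 13 of 16 UPR genes (0.34) and 11 of 16 ERAD genes (0.08). Of all genes 49.1% were above 0, and 0 genes of these lists were called.

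The genes of secreted matrix proteins, a main cargo of the pathway in mesenchymal cells, were read beside the set. On induction 7 of 19 fell in control cells (median -0.58), where 3.38% of all genes fell. In shRNA cells 13 of 19 fell (median -1.25), where 7.36% of all genes fell, and 0 rose in either line. Before induction 15 of the 19 were already above 0 in shRNA against control cells (median 0.28), with 0 called. The difference between the induction responses had a median of -0.70 with 0 called, so a larger fall in shRNA cells was not shown. Lum, which encodes the collagen-binding proteoglycan lumican, fell from 127 and 94.2 CPM to 5.45 and 1.94 in control cells, and from 47 and 30.3 to 0.494 and 0.401 in shRNA cells (edgeR adjusted p = 0.00165 and 0.000879). Dcn, which encodes decorin, fell, with log2 fold changes of -2.37 and -3.07 (edgeR adjusted p = 0.00935 and 0.00316). After 7 days the median of the matrix genes between the lines was -0.22, where that of the folding and secretion members was 0.21, and 0 of the 19 were called in that comparison.

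Marker lists of cell types moved with induction as well. The summed osteoblast list was at 1646 to 1807 CPM in NC and 2091 to 5412 in NC-7d, and at 1676 to 1831 in KD-Nap1l2 and 4378 to 4549 in KD-Nap1l2-7d. Nearly all of each sum was Spp1, which encodes osteopontin, at 1673 and 1537 CPM in NC and 5316 and 2026 in NC-7d. Of the 5 osteoblast genes tested, 1 was above 0 on induction in control cells (median -0.46) and 3 in shRNA cells (median 1.18). Of the 5, Spp1 rose by 1.41 ± 0.38 and Runx2 fell by 0.58 in shRNA cells (edgeR adjusted p = 0.0446 and 0.0334). In control cells 0 were called. Of the 4 adipocyte genes tested, Fabp4 and Pparg rose in both lines, and the summed level of the list went from 43.6 to 48.5 CPM in NC to 150 to 187 in NC-7d, and from 53.8 to 64.8 in KD-Nap1l2 to 150 to 193 in KD-Nap1l2-7d, while Adipoq stayed at or under 0.965 CPM in every library. Of the same 4, Cebpa fell in shRNA cells. The summed mesenchymal list was at 14976 to 15200 CPM in NC and 10606 to 10903 in NC-7d, and at 13160 to 18870 in KD-Nap1l2 and 8848 to 10576 in KD-Nap1l2-7d. Its largest parts were Vim, Col1a1 (also a matrix gene) and Ly6a, at 5843, 3900 and 1916 CPM in NC replicate 1. Of the 11 mesenchymal genes tested, 4 were above 0 on induction in control cells (median -0.46) and 4 in shRNA cells (median -0.20). The summed haematopoietic list was at 208 to 243 CPM in NC, 44.1 to 68.5 in KD-Nap1l2, 19 to 20.2 in NC-7d and 22.6 to 31.4 in KD-Nap1l2-7d. In NC nearly all of it was Cd74, at 198 and 234 CPM, and the leukocyte gene Ptprc did not exceed 0.215 CPM. The chondrocyte gene Col2a1 was higher in shRNA cells before induction, by 2.56 ± 0.31 (edgeR adjusted p = 0.0478), and in those cells Col2a1 and Sox9 fell on induction, with log2 fold changes of -1.94 and -0.67. The summed endothelial and epithelial lists did not exceed 19.6 and 8.53 CPM in any library, and in them Cdh1 fell in both lines and Tek in shRNA cells. The part of these shifts in the values of the folding and secretion genes was not tested.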

How the data were processed

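Estimated counts and FPKM per gene and per transcript were deposited by the authors without pooling of libraries. The submitters' processing notes name BWA, Bowtie2 and RSEM and the build GRCm38.p6, with no roles or versions. The unit FPKM was inferred from the deposited values, whose ratio to the counts gives plausible transcript lengths. Tables of the authors' own comparisons, with fold changes and p-values, were not used. The study's methods state no test for these RNA-seq data.

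Estimated counts (41.1% of genes hold one that is not whole) were rounded, scaled by TMM and filtered by filterByExpr, which kept 13470 genes. One 4-group model of all 8 libraries was fitted with edgeR 4.0.16 (R 4.3.3), and its quasi-likelihood test gave 5 contrasts, with calls at a Benjamini-Hochberg adjusted p under 0.05 over all genes. CPM values are TMM-scaled. Alternatives used DESeq2 1.42.0, limma 3.58.1 on log2 FPKM, other filters and scalings, a replicate block and leaving out each library. The tests were tested on simulated data. Gene spans are from GENCODE vM21 (GRCm38), and promoter windows from RefSeq (GRCm38.p6). Python 3.11.15 and matplotlib 3.10.9 were used for tables and figures.

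Members and lists were chosen with earlier results of these data known. Per-library values are given for called members, the 3 largest changes per contrast, the most abundant member of each role, Hspa5, Xbp1 and the sensors, and at most 3 called genes are named per other list and contrast. Depth limits Nap1l2, where 3 counts correspond to 0.1544 to 0.1722 CPM by the library totals, without TMM scaling. This limit is one of counting error alone.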

Additional observations from a re-analysis of the deposited data

How the results depend on the processing

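With 2 libraries per group, each call of a member was lost under at least 1 alternative. Of the members called on induction in control cells (4), DESeq2 gave 7, a fit of only the libraries compared 2, a log2 fold change of at least 1 gave 1, and leaving out 1 library 0 to 1. In shRNA cells (4) the fit of only the libraries compared gave 2, the fold threshold 2, and leaving out 1 library 0 to 5. Between the lines, DESeq2 called 1 member after 7 days and 0 were called by edgeR, and before induction leaving out 1 library gave 0 to 1. Median log2 fold changes ran from 0.11 to 0.31 (after 7 days), from -0.10 to 0.06 (induction of shRNA cells) and from 0.19 to 0.35 (difference between responses) when 1 library was left out. P4hb before induction ran from -0.38, a reversal, to 0.93 when replicate 2 or 1 of KD-Nap1l2 was left out. The spliced Xbp1 share in KD-Nap1l2-7d was 27.3% from FPKM. For all genes before induction, edgeR's 11 calls became 462 with DESeq2, 160 without a filter, 4 with at least 10 counts in every library, 0 in the fit of the libraries compared, 33 and 18 with limma on log2(FPKM + 1) and log2(FPKM + 0.1), and 0 to 562 when 1 library was left out. After 7 days DESeq2 called 82 and for the difference between responses 97, where edgeR called 0 and, with no filter, 0 and 1. On induction, leaving out 1 library gave 122 to 926 calls in control and 305 to 2200 in shRNA cells. A fit with 1 library in a group assumes that it varies like the others. The cause of these shifts was not tested. The number of members above 0, counted under each alternative after seeing the data, was 37 after 7 days in every alternative that kept all libraries.

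Whether the replicate numbers pair the samples cannot be settled here. Deviations of same-numbered libraries correlated from -0.09 to 0.12 between groups, so no strong shared deviation was seen. With the number as a replicate block, 961 and 1757 genes were called on induction, and between the lines 4 before induction and 0 after it. On induction 3 members were called in each line, since Serpinh1 in control cells (-1.01) and Fkbp10 in shRNA cells (-0.48) lost their calls.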
